A study of Homo sapiens with 12 samples.

Results

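The comparison set 1 μM PLS-123 against 10 μM ibrutinib, on 6 of the 12 arrays of the experiment, 3 with each compound. The 6 arrays were taken by their sample titles, and all 54613 probe sets other than the array's own controls were compared. All samples were OCI-Ly7, an established line of B-cell non-Hodgkin lymphoma grown in medium with serum and treated for 24 hours. The other 6 arrays, 3 with vehicle alone and 3 with 1 μM ibrutinib, gave the level from which each compound moved a gene and added to the estimate of the spread. The doses differed by design, so an effect of the compound and an effect of its dose cannot be told apart here. Whether the replicates came from separate cultures is not stated, so the p values measure the spread between these samples, which may be technical.

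Btk is a cytosolic kinase that passes the signal of the B-cell receptor to phospholipase C, and from there to calcium, protein kinase C, NF-κB and ERK. Ibrutinib binds Btk covalently and also reaches other kinases. PLS-123 is the study's own Btk inhibitor, known by its code name. A pair of kinase inhibitors can move the same genes to a different extent, or can each move genes that the other leaves alone, and the genes below are described by which of these their values show.

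MS4A1 and CD79B stayed at high levels under both compounds, though B-cell markers as a list fell from vehicle. Of 7 measured B-cell markers, 5 passed as lower and 1 as higher against vehicle with PLS-123. With ibrutinib 3 passed as lower and 0 as higher. Their median change was -0.38 with PLS-123 and -0.22 with ibrutinib. Of all probe sets, 16.7% and 10.0% passed against vehicle in either direction. MS4A1, the surface protein CD20, had a mean log2 intensity of 11.84 with ibrutinib and 11.76 with PLS-123, and CD79B, a signalling chain of the B-cell receptor, of 11.46 and 11.49. Of 12 measured markers of T and NK cells, the highest mean was 4.88 with ibrutinib and 5.10 with PLS-123, and 11 of the 12 had a higher mean with PLS-123, with a median difference of 0.09. Of 9 markers of stromal and epithelial cells the highest mean was 6.18 and 6.55, and 6 were higher with PLS-123. Markers of myeloid cells went the other way, with 5 of 6 measured lower with PLS-123 (median difference -0.06). So did those of plasma cells, with 4 of 4 lower (median -0.19). Of all genes 58.0% were lower. None of the T, NK, stromal, epithelial, myeloid or plasma cell markers passed limma's test between the compounds, and their part in the results below was not tested. Levels on any pair of the 6 arrays correlated over probe sets at 0.9946 or more within a group and at 0.9916 to 0.9948 between the groups. On RMA values, which ran from 2.09 to 15751 on the linear scale, the medians of the 12 arrays lay between 14.2 and 14.8.

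Most probe sets with a large shared response differed little between the compounds. The shared response is the mean of both compounds minus vehicle, on the log2 scale, and its error does not carry over into the difference between the compounds. It exceeded 1 at an adjusted p under 0.05 for 681 probe sets, of which 415 rose and 266 fell. For 501 of them (73.6%) the 95% confidence interval of the difference between PLS-123 and ibrutinib lay within a fold change of 1.5 on either side. Because they were chosen by the mean of both compounds, probe sets moved by a single compound tended to be left out. The share within this limit over all probe sets was not computed. TJP1, the tight junction scaffold ZO-1, rose by 4.46 with PLS-123 and by 4.45 with ibrutinib, and the interval of the difference ran from -0.23 to 0.25. PTGER4, a receptor for prostaglandin E, rose by 3.67 and 3.53 (interval of the difference -0.17 to 0.45). CD28, a costimulatory receptor better known from T cells, fell by 3.30 and 3.19 (-0.32 to 0.12), and NLRP4, of the NOD-like receptor family, fell by 3.50 and 3.51 (-0.31 to 0.35). These were among the largest rises and falls with an interval of that kind.

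The drug target itself and the kinase above it moved by less than 1 on the log2 scale and so were not among the 681, and their intervals also lay within a fold change of 1.5. BTK differed by 0.08 on the log2 scale between the compounds (95% interval -0.10 to 0.27), after falls of 0.43 with PLS-123 and 0.51 with ibrutinib, log2 changes whose adjusted p values by limma were 0.0034 and 0.00121. SYK, the kinase that acts upstream of Btk, rose by 0.83 and 0.88, and its difference was -0.04 (-0.20 to 0.11). LCK, a Src-family kinase, fell by 0.69 and 0.78 (difference 0.08, -0.07 to 0.24).

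The overall size of the response was measured on each array as the slope of its departure from the vehicle mean on the shared response, where 1 is the mean of both compounds. Over the 266 probe sets that fell, the ibrutinib arrays scored 0.993, 0.923 and 0.932 and the PLS-123 arrays 1.03, 1.06 and 1.06. All 3 PLS-123 arrays lay above all 3 ibrutinib arrays, at means of 1.051 ± 0.017 and 0.949 ± 0.038 (SD, n = 3 arrays; exact permutation test, two-sided, p = 0.1, and no smaller p is possible with 3 arrays against 3). The falls with PLS-123 were thus 1.11 times as large as those with ibrutinib on the log2 scale. Over the 415 probe sets that rose the scores overlapped, at 1.004 ± 0.043 with PLS-123 and 0.996 ± 0.022 with ibrutinib (SD, n = 3; exact permutation p = 0.8), and the ratio was 1.01. After a further quantile normalization the ratios were 1.08 for falls and 1.045 for rises. With 1 μM ibrutinib the scores over all 681 probe sets were 0.0894 to 0.110.

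**Figure D1:**
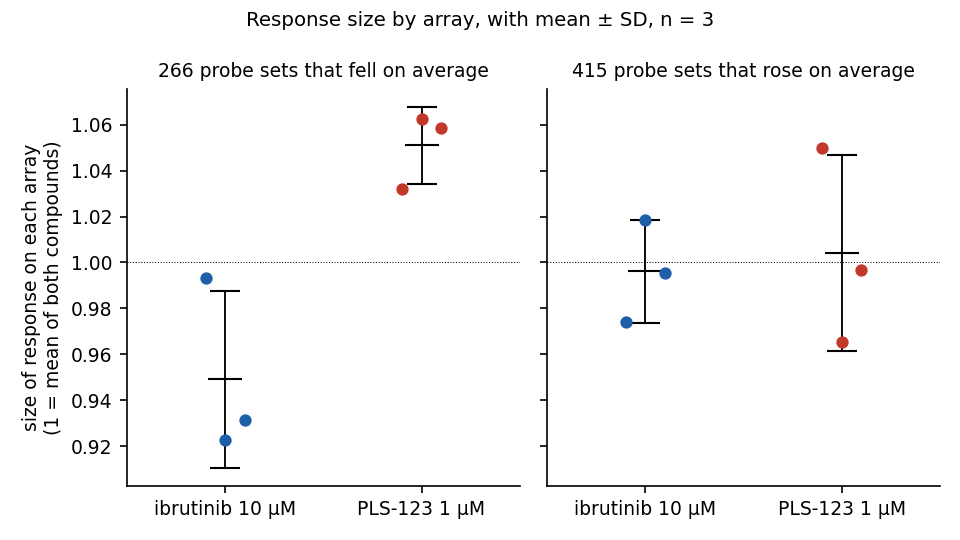
Size of the response on each of the 6 arrays (points, with mean ± SD of 3 arrays), as the slope of the array's departure from the vehicle mean on the mean response of both compounds, for the 266 probe sets that fell and the 415 that rose. PLS-123 and ibrutinib arrays did not overlap for falls (0.923 to 0.993 against 1.03 to 1.06) and overlapped for rises.

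Against this common response, 100 of 54613 probe sets (0.183%) differed between the compounds in limma's test at an adjusted p under 0.05, 72 lower (0.132%) and 28 higher (0.0513%) with PLS-123. An unadjusted p under 0.05 was reached by 8333. Read from 1 probe set per gene, with the adjustment still over all 54613 probe sets, 42 of 19775 genes (0.212%) passed. Of these, 28 were lower (0.142% of all genes) and 14 higher (0.0708%). In all 42 the 3 arrays of one compound lay above the 3 of the other, which held for 18.2% of all genes in the lower direction and 6.97% in the higher. The part of the 100 that was lower was 72.0%, against 55.6% of 90 after a further quantile normalization. The number passing rested on single arrays: it was 10 without replicate B of 10 μM ibrutinib, 27 without its replicate C and 63 without its replicate A, 61 and 28 without replicates B and C of PLS-123, and 212 without replicate A of 1 μM ibrutinib. The 6 genes that passed with each of the 12 arrays left out in turn were SGK1, PLEK, SLC7A11, HMCES, TBC1D9 and S100A4. In a fit whose spread may vary with intensity, all 42 passed, among 2.86% of genes that were then lower and 0.637% that were higher.

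Of the 100 probe sets, 44 were moved in the same direction by both compounds at an adjusted p under 0.05 against vehicle, 40 of them further by PLS-123 and 4 further by ibrutinib. Another 41 passed against vehicle with PLS-123 alone, 14 with ibrutinib alone and 1 in opposite directions, where 16.7% of all probe sets passed against vehicle with PLS-123 and 10.0% with ibrutinib. Passing with one compound and not with the other depends on the threshold, since the change with the compound that did not pass ran from -0.37 to 0.27 among the 41 and from -0.33 to 0.31 among the 14. Classed by size, with 0.25 of the larger response as the limit, 54 moved in the same direction, 24 mostly with a single compound and 22 had opposite signs. Of the 681 responding probe sets 23 (3.38%) were among the 100, 19 that fell and 4 that rose.

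**Figure D2:**
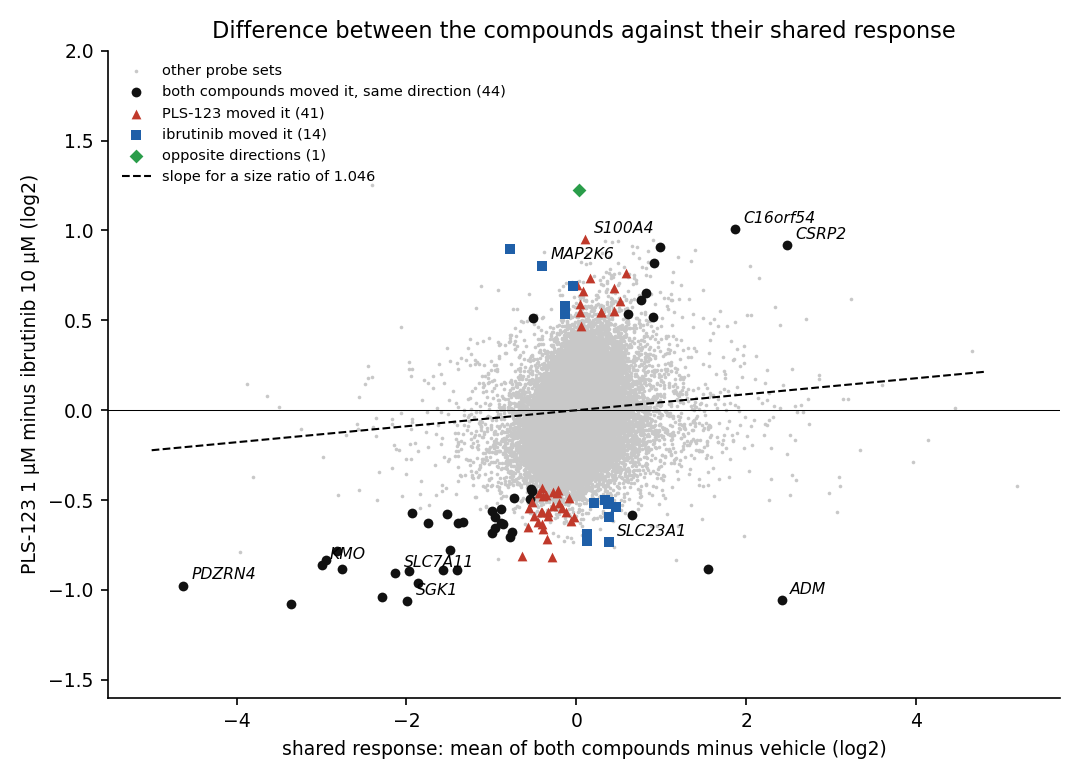
Difference between the compounds (vertical axis, log2) against their shared response (horizontal axis, log2) for 54613 probe sets. The 100 that passed are marked by whether both compounds (44), PLS-123 alone (41), ibrutinib alone (14) or both in opposite directions (1) moved them against vehicle, and the dashed line is the slope for an overall size ratio of 1.046.

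The largest group, 16 genes, fell with both compounds and fell further with PLS-123. SGK1, a kinase related to AKT that acts downstream of PI3K, had log2 intensities of 8.06, 8.08 and 7.75 with vehicle, 6.31, 6.56 and 6.64 with ibrutinib, and 5.62, 5.45 and 5.26 with PLS-123. The groups did not overlap, and the fall was 2.52 with PLS-123 and 1.46 with ibrutinib, a difference of -1.06 ± 0.12 (SE, n = 3 arrays per group; limma adjusted p = 0.00691), or 2.08-fold (the fold between the compounds). PLEK, the protein kinase C substrate pleckstrin, had 6.49, 6.77 and 6.65 with ibrutinib and 5.88, 5.43 and 5.48 with PLS-123, a difference of -1.04 ± 0.12. Its other probe set differed by -0.54 without passing (limma adjusted p = 0.0642). PDZRN4, a protein with PDZ and RING domains, fell furthest of the 42 genes, from 8.15, 8.16 and 8.18 with vehicle to 3.74, 4.16 and 4.17 with ibrutinib and 2.91, 3.09 and 3.14 with PLS-123. Its difference was -0.98 ± 0.14 (limma adjusted p = 0.0124), but the PLS-123 values lay in the dim range, and with 16 added to the intensities it became -0.41 (limma adjusted p = 0.0587).

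The same group held SLC7A11, CHAC1, KMO and HMCES. SLC7A11, the cystine and glutamate exchanger that supplies cysteine for glutathione, had log2 intensities of 7.68, 7.67 and 7.67 with vehicle, 5.81, 6.15 and 6.04 with ibrutinib and 5.08, 5.03 and 5.17 with PLS-123. It differed by -0.90 ± 0.09 (limma adjusted p = 0.00425), and its other probe sets by -0.89 and, on a dim one that did not pass, by -0.39. CHAC1, an enzyme that breaks down glutathione, had 6.68, 6.87 and 6.98 with ibrutinib and 5.97, 5.96 and 5.91 with PLS-123, a difference of -0.90 ± 0.11 (limma adjusted p = 0.00691). KMO, an enzyme of the kynurenine pathway of tryptophan breakdown, had 5.83, 6.20 and 6.06 with ibrutinib against 5.16, 5.08 and 5.27, a difference of -0.86 ± 0.11. Its other probe sets differed by -0.83, which passed, and by -0.27, which did not. HMCES, which shields abasic sites in DNA, had 8.49, 8.47 and 8.55 against 7.59, 7.68 and 7.89, and its pair of probe sets differed by -0.78 and -0.89.

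The rest of this group had smaller falls. HBEGF, a ligand of the EGF receptor, fell by 1.33 with PLS-123 and by 0.65 with ibrutinib, and its pair of probe sets above the dim range differed by -0.68 and -0.65, while a dim pair differed by 0.05 and -0.08. LAPTM5, a lysosomal membrane protein of blood cells that lowers antigen receptor levels, differed by -0.63 and -0.96 on its pair of probe sets. ERP44, a chaperone that retrieves proteins to the endoplasmic reticulum, fell by 1.20 and 0.58, and AIM2, a sensor of cytosolic DNA, by 1.27 and 0.71. The other probe sets of ERP44 differed by -0.30 and -0.04 without passing. METRNL, RAI14, ANKRD33B, METTL8 and SYT11 also fell further with PLS-123, with differences of -0.71, -0.64, -0.58, -0.55 and -0.49. The other probe sets of METTL8 differed by -0.29 and -0.16, and those of SYT11 by -0.32 and -0.32, without passing. Of MS4A1 a pair of probe sets with probes that may match other transcripts passed, at -0.63 and -0.62, while the probe set with the highest level differed by -0.08 (95% interval -0.29 to 0.13).

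Among genes that rose with both compounds, 5 rose further with PLS-123. CSRP2, a LIM-domain protein of the cytoskeleton, had log2 intensities of 3.29, 4.01 and 3.58 with vehicle, 5.75, 5.46 and 5.72 with ibrutinib and 6.46, 6.67 and 6.55 with PLS-123, a difference of 0.92 ± 0.15 (limma adjusted p = 0.0239). C16orf54, a membrane protein gene, had 4.12, 3.91 and 3.86 with ibrutinib and 5.15, 4.77 and 5.01 with PLS-123. Its difference was 1.01 ± 0.16, and it is dim, meaning that its mean over the arrays lies under 3.87 on the log2 scale, the middle value of the probe sets. The other genes were TBC1D27P, a pseudogene (0.91), DDX11-AS1, an antisense RNA (0.61), and RIGI, a sensor of viral RNA (0.54). The probe set of RIGI that passed may also match other transcripts by its suffix. Its other probe sets above the dim range differed by 0.26 and 0.08, and that of CSRP2 by 0.41, without passing.

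Of the 42 genes, only ADM and IER3 were moved further by ibrutinib in the same direction, and both rose. ADM, the secreted peptide adrenomedullin and a gene induced in hypoxia, had log2 intensities of 3.38, 3.90 and 3.61 with vehicle, 6.66, 6.59 and 6.50 with ibrutinib and 5.52, 5.53 and 5.53 with PLS-123. The rise was 2.95 with ibrutinib and 1.89 with PLS-123, so ADM was 2.08-fold lower with PLS-123 (difference -1.05 ± 0.14, SE, n = 3 arrays per group; limma adjusted p = 0.009). IER3, an immediate early gene that affects survival of stressed cells, rose by 0.95 and 0.37 (difference -0.58 ± 0.10, limma adjusted p = 0.0483).

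**Figure D3:**
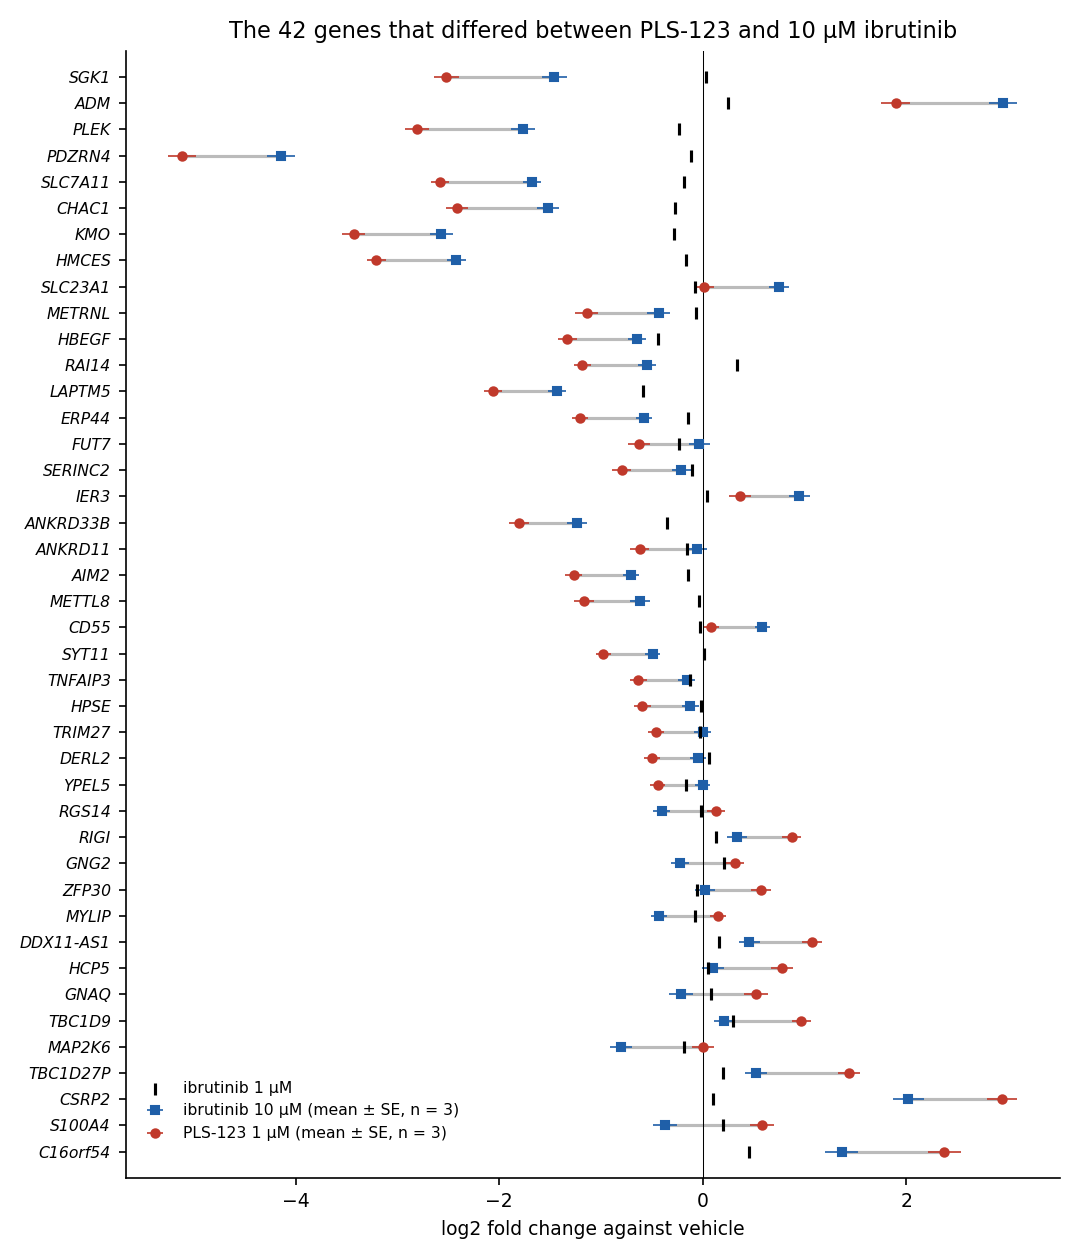
Log2 fold change against vehicle for the 42 genes that differed between the compounds, with 10 μM ibrutinib (squares) and 1 μM PLS-123 (circles) as mean ± SE of 3 arrays per group and 1 μM ibrutinib as a tick. The genes are ordered by the difference, from SGK1 (-1.06) to C16orf54 (1.01), and with 1 μM ibrutinib all 42 lay between -0.59 and 0.46.

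Of the 42 genes, 5 passed against vehicle with ibrutinib and not with PLS-123. MAP2K6, the kinase that activates p38, had log2 intensities of 7.15, 7.42 and 7.23 with vehicle, 6.28, 6.48 and 6.62 with ibrutinib and 7.35, 7.26 and 7.19 with PLS-123. Vehicle and PLS-123 arrays overlapped and the ibrutinib arrays lay below both, a difference of 0.80 ± 0.11 (limma adjusted p = 0.0101). SLC23A1, a sodium-coupled transporter of vitamin C, went the other way, with 6.65, 6.68 and 6.49 for vehicle, 7.23, 7.41 and 7.42 for ibrutinib and 6.71, 6.52 and 6.63 for PLS-123, a difference of -0.73 ± 0.10 (limma adjusted p = 0.00904). CD55, which protects cells from complement, rose by 0.58 with ibrutinib and changed by 0.08 with PLS-123. Its other probe sets changed by 0.94 and 0.49 with ibrutinib and by 0.74 and 0.25 with PLS-123, and differed by -0.20 and -0.24 without passing. RGS14, a regulator of G-protein signalling, fell by 0.40 with ibrutinib and changed by 0.13 with PLS-123. Its other probe sets differed by 0.33 and 0.10 without passing. MYLIP, a ubiquitin ligase of the LDL receptor, fell by 0.43 and changed by 0.15, but its probe sets did not share this class. A second one that passed, at 0.55, changed by 0.17 with ibrutinib and rose by 0.72 with PLS-123, and the other 4 differed by -0.02 to 0.30 without passing.

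Another 14 of the 42 genes passed against vehicle with PLS-123 and not with ibrutinib, 8 of them lower and 6 higher with PLS-123. S100A4, a calcium-binding protein linked to cell motility, had log2 intensities of 5.46, 5.38 and 5.36 with vehicle, 4.76, 5.08 and 5.25 with ibrutinib and 5.91, 6.12 and 5.92 with PLS-123. The vehicle arrays lay between those of the compounds, and the difference was 0.95 ± 0.12 (limma adjusted p = 0.00691). TBC1D9, of a family that acts on Rab proteins, had 3.68, 3.74 and 3.49 with ibrutinib and 4.38, 4.56 and 4.27 with PLS-123, a difference of 0.76 ± 0.10 for a dim probe set. GNAQ and GNG2, the alpha and gamma subunits of heterotrimeric G proteins, differed by 0.74 and 0.55, HCP5, a long noncoding RNA of the MHC region, by 0.68, and ZFP30, a zinc finger protein, by 0.55. The probe sets of GNAQ and ZFP30 that passed may also match other transcripts by their suffix. The other probe set of GNAQ above the dim range differed by -0.10, while that of GNG2 differed by 0.25.

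On the probe set read for each, the 8 genes that PLS-123 lowered differed by -0.44 to -0.59. TNFAIP3, the ubiquitin-editing protein A20 that restrains NF-κB, had log2 intensities of 8.38, 8.50 and 8.36 with vehicle, 8.17, 8.34 and 8.25 with ibrutinib and 7.82, 7.78 and 7.74 with PLS-123, a difference of -0.47 ± 0.08 (limma adjusted p = 0.0451). DERL2, which helps to export misfolded proteins from the endoplasmic reticulum, differed by -0.46, and HPSE, heparanase, by -0.47. FUT7, a fucosyltransferase that makes selectin ligands, differed by -0.59 and ANKRD11, a chromatin regulator, by -0.57. SERINC2, TRIM27 and YPEL5 differed by -0.59, -0.46 and -0.44, and the other probe set above the dim range of YPEL5 by -0.44. The other probe sets of SERINC2 in that range differed by -0.05 and 0.17. Another of ANKRD11 passed, at -0.51, and the rest ran from -0.28 to -0.06 without passing. Against vehicle with PLS-123 that rest changed by -0.14 to 0.16. The others of TRIM27 differed by -0.31 and -0.23 without passing. The latter changed by 0.07 with PLS-123 and by 0.30 with ibrutinib. Those of TNFAIP3, DERL2 and HPSE differed by -0.24, -0.34 and -0.32 without passing.

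The smallest adjusted p of the comparison, 0.000199, belonged to probe set 229569_at, which the annotation used here gives no gene symbol, and which was picked out after its values were seen. Its log2 intensities were 4.10, 3.97 and 4.04 with vehicle, 3.45, 3.40 and 3.52 with ibrutinib and 4.62, 4.58 and 4.84 with PLS-123. It fell by 0.58 with ibrutinib and rose by 0.64 with PLS-123, the single probe set that passed against vehicle in opposite directions.

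**Figure D4:**
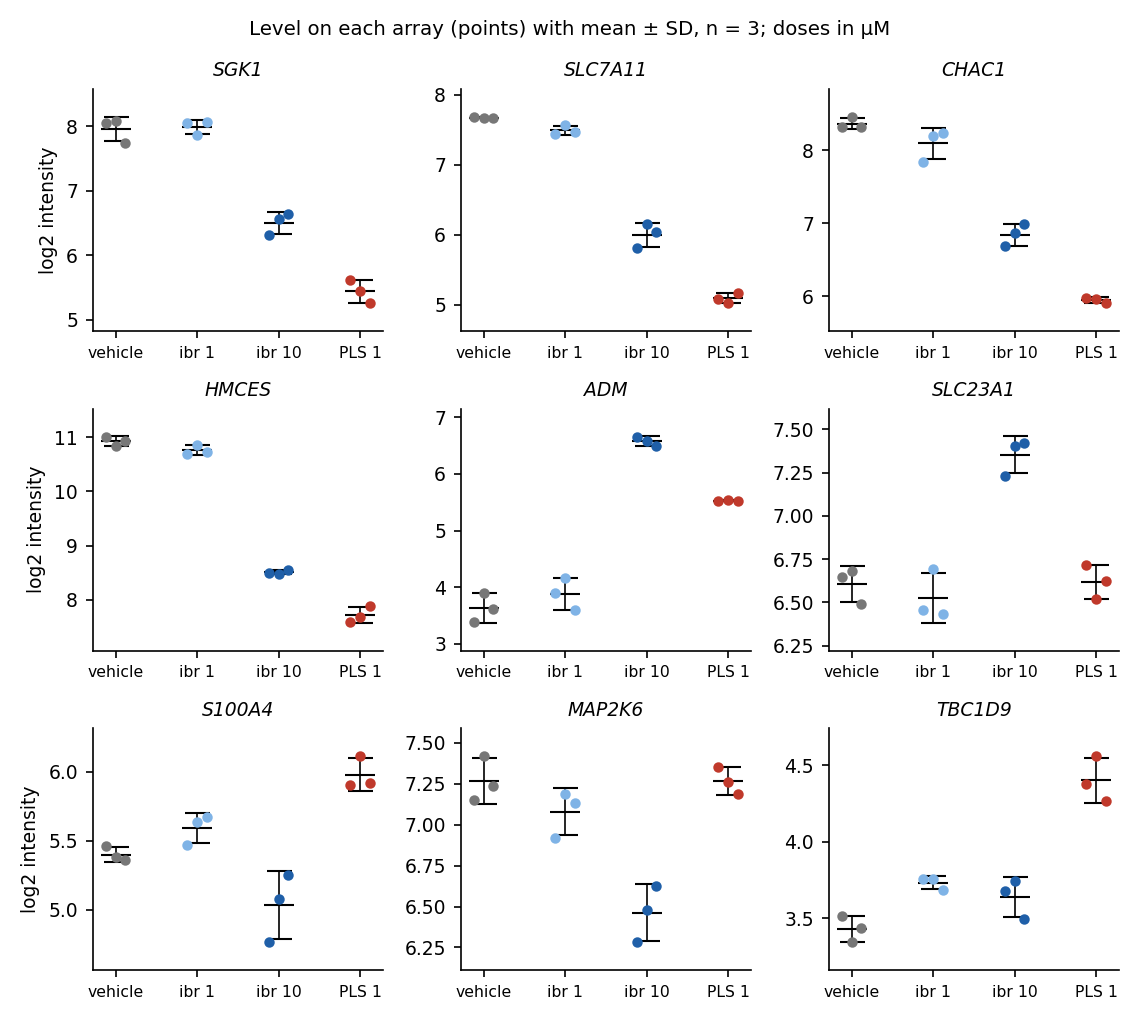
Log2 intensity on each of the 12 arrays (points, with mean ± SD of 3 arrays) for 9 genes that differed between the compounds. In SGK1, SLC7A11, CHAC1 and HMCES the PLS-123 arrays lay below those of 10 μM ibrutinib and both below vehicle, and ADM was highest with ibrutinib. SLC23A1 and MAP2K6 departed from vehicle with ibrutinib, and TBC1D9 with PLS-123. In S100A4 the PLS-123 arrays lay above vehicle and those of 10 μM ibrutinib below it, and only the change with PLS-123 passed.

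The same test was then run with the overall difference in response size allowed for. With the PLS-123 response set against 1.046 times the ibrutinib response, 97 probe sets departed from that line, 87 of them among the 100. With the ratio of each direction, 1.11 for falls and 1.01 for rises, 60 departed, 59 of them among the 100. These 59 held 19 of the 40 probe sets that both compounds moved and PLS-123 moved further, 23 of the 41 moved by PLS-123 alone and 13 of the 14 moved by ibrutinib alone. SGK1, PLEK, SLC7A11 and CHAC1 kept limma adjusted p values of 0.0248, 0.0248, 0.0197 and 0.0335 against the ratio for falls, while KMO, HMCES and PDZRN4 came to 0.076, 0.068 and 0.153. Each ratio was held fixed in these tests and was estimated from the same arrays. The ratio for falls, with an SD of 0.048 from the spread of the arrays, came from probe sets that include these genes. The p values leave out that uncertainty. The 97 became 61 and 49 without vehicle replicates A and C, 167 without replicate A of 1 μM ibrutinib, 55, 1 and 13 without replicates A, B and C of 10 μM ibrutinib, and 51, 14 and 9 without those of PLS-123.

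Other probe sets of the same gene gave a second reading. In 20 genes that both compounds moved in the same direction and that had another probe set that was not dim, 18 had one with the same sign and an unadjusted p under 0.05, and 0 had one with the opposite sign at that level. In 37 genes of the other classes the numbers were 24 and 4. The median difference of the other probe sets, counted in the direction of the one that passed, was 0.37 and 0.15 in these groups, against 0.65 and 0.55 for the probe sets that passed. This reading was not independent of the test throughout. For EIF5, HBEGF, HMCES, KMO, LAPTM5, MS4A1 and SLC7A11 an other probe set was itself among the 100, as for ANKRD11 and MYLIP in the other classes. The share of genes with such a probe set over all genes was not computed, and 8333 of 54613 probe sets reached that p in either direction.

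RNA quality moved slightly with the compounds. The log2 difference between the 3' and 5' control probe sets of ACTB, which grows as transcripts are shortened, was 2.83, 2.81 and 3.17 with PLS-123 and 2.69, 2.70 and 2.83 with ibrutinib (difference 0.193, two-sided exact permutation p = 0.3). For GAPDH it was 0.449 ± 0.015 and 0.390 ± 0.008 (SD, n = 3; exact permutation p = 0.1). With the ACTB value of each array as a covariate 14 probe sets differed, and PLEK, PDZRN4, SLC7A11, HMCES, TBC1D9, MAP2K6, TBC1D27P and S100A4 passed, 8 of the 42 genes. The other 34 did not pass, but their differences kept 84.7% to 109.2% of their size, with SGK1 at -1.03, ADM at -1.01 and KMO at -0.84.

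Gene lists were described by their counts and medians beside those of all 19775 genes, whose median difference was -0.03 (-0.0004 after quantile normalization) and of which 58.0% were negative, or 64.5% of the 12040 that were not dim. An unadjusted p under 0.05 was reached in the lower direction by 11.9% of all genes and 17.4% of those that were not dim, and in the higher direction by 5.01% and 5.1%. Most lists lay below 0 by little, so small medians near these backgrounds are not a result about a list.

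**Figure D5:**
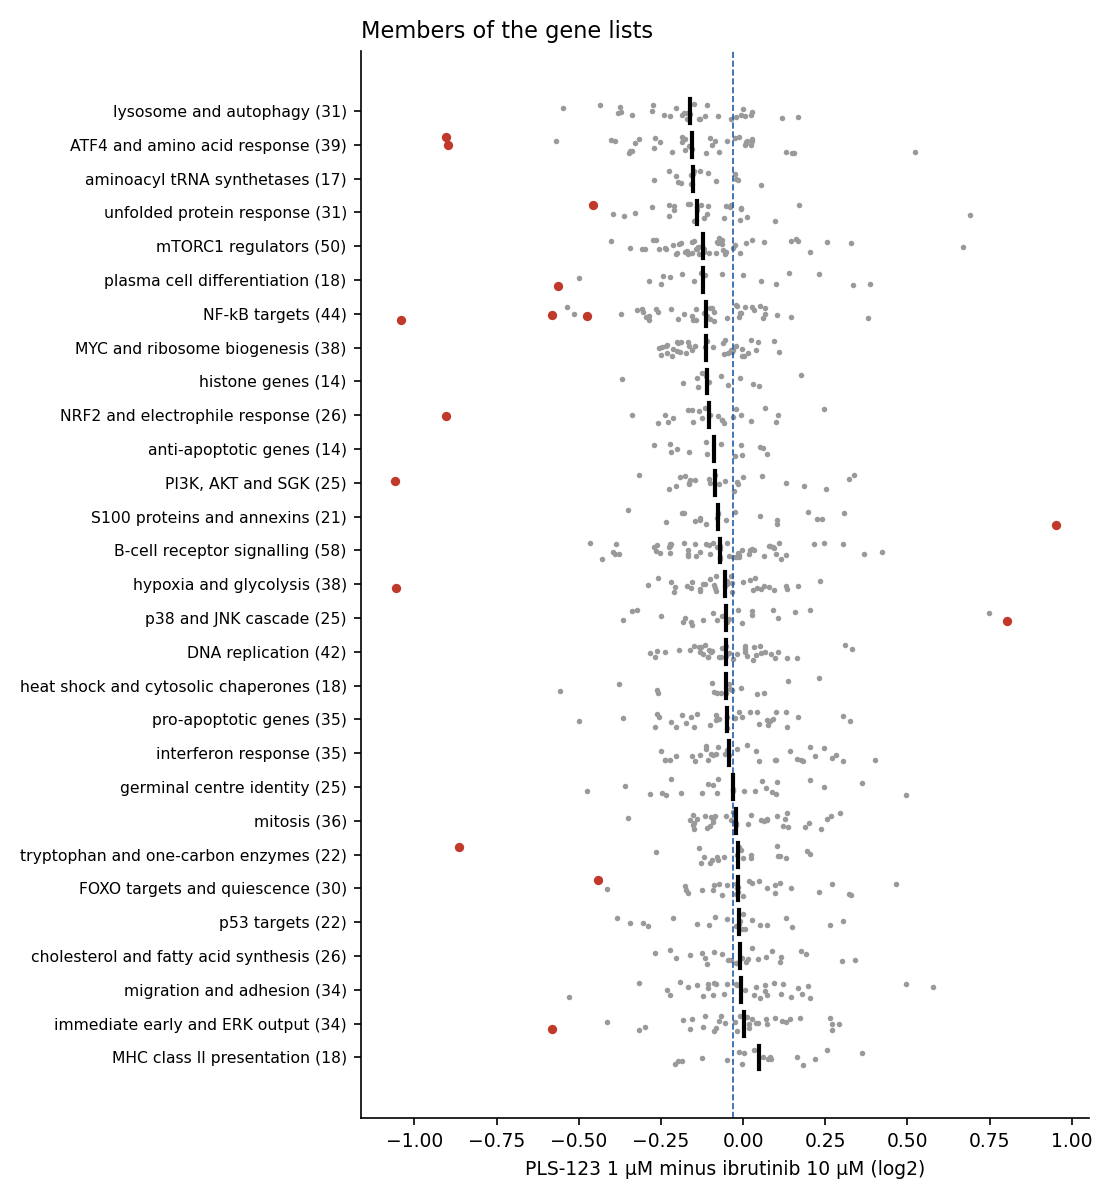
Difference between 1 μM PLS-123 and 10 μM ibrutinib (log2) for each measured member of 29 gene lists, with the number measured in brackets, the list's median as a black bar and the median of all genes (-0.03) as a dashed line. Red points are members that passed limma's test, such as SLC7A11 and CHAC1 in the ATF4 list and MAP2K6 in the p38 list.

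ATF4 is a transcription factor whose translation rises when amino acids run short or proteins misfold, and it switches on transporters and enzymes that supply amino acids. Of 39 measured genes of this list, 2 passed as lower with PLS-123, SLC7A11 and CHAC1, and 0 as higher, against 0.142% and 0.0708% of all genes. The median difference was -0.15, 28 of 39 were negative, and 17 (43.6%) had an unadjusted p under 0.05 in the lower direction and 1 in the higher. Members with such a p that did not pass, picked after their values were seen, were ASNS, asparagine synthetase (-0.33), SLC7A5, the large neutral amino acid transporter (-0.35), and PCK2, a mitochondrial enzyme of phosphoenolpyruvate synthesis (-0.57). PSPH, the last enzyme of serine synthesis, went the other way (0.52), and ATF4 mRNA differed by -0.07. The list's median was -0.42 against vehicle with PLS-123 and -0.27 with ibrutinib, and its difference stayed below 0 after quantile normalization (-0.09), centring on control probe sets (-0.14) and with the ACTB covariate (-0.11). The aminoacyl tRNA synthetases, which load amino acids onto tRNAs, had a median of -0.15 (-0.10 after quantile normalization) with 16 of 17 negative, 5 with an unadjusted p under 0.05 in the lower direction and 0 that passed.

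The promoter of CHAC1 is shown because CHAC1 is a member of this list that passed and holds the core of the composite element that ATF4 binds with C/EBP proteins. The letters searched on both strands of the 300-base RefSeq windows of GRCh38.p14 were TGATGNAA. They occurred in 9 of 32 genes of the list with a window (28.1%), among them ASNS, ATF3, SLC3A2 and SLC7A1, and in 4.5% of 27305 genes. Of the 28 genes lower with PLS-123, 25 had a window and 1 held the letters. SLC7A11 was not searched. The 250 bases before the start of CHAC1 (chr15:40953221-40953470, plus strand) follow, with the match, on the other strand, in capitals at base 42 of the window.
CHAC1: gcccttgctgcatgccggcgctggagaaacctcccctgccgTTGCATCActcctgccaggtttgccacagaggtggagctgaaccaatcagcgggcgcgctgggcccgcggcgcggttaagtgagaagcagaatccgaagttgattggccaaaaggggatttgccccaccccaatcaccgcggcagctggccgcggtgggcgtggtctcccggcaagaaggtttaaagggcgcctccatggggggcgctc

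NF-κB is kept active in many lymphomas by B-cell receptor signals that run through Btk. Of 44 measured target genes, 3 were lower with PLS-123 (PLEK, IER3 and TNFAIP3) and 0 higher. The median difference was -0.11 (-0.09 after quantile normalization), 34 of 44 were negative, and 16 (36.4%) had an unadjusted p under 0.05 in the lower direction and 1, CD86, in the higher (0.38). Among members below the threshold, picked after their values were seen, RELB and NFKB2, subunits of the noncanonical pathway, differed by -0.52 and -0.37 and NFKBIA, the inhibitor IκBα, by -0.31. REL and BCL2A1 differed by -0.09 and -0.11 with unadjusted p values of 0.32 and 0.44 by limma. Against vehicle the median was -0.05 with PLS-123 and 0.03 with ibrutinib. A form of the site that NF-κB binds, GGG and any 3 bases followed by TTCC, on either strand, was found in the windows of 17 of 37 genes of the list (45.9%) and 7.8% of all genes, and in 2 of 25 genes lower with PLS-123 (FUT7 and TNFAIP3) and 2 of 10 genes higher, DDX11-AS1 and RIGI. TNFAIP3 is shown because, of these 3 lower genes of the list, it alone passed against vehicle with PLS-123 and not with ibrutinib. Its log2 changes were -0.63 and -0.16. The 250 bases before its start (chr6:137867009-137867258, plus strand) hold a pair of matches, on the other strand, in capitals from bases 184 and 196.
TNFAIP3: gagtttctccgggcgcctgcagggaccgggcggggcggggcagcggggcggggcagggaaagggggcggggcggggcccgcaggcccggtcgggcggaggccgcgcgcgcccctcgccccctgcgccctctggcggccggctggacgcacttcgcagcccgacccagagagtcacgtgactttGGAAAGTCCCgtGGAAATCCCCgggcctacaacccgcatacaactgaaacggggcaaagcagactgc

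Signalling lists closer to Btk held at most 1 member that passed. Of 58 measured genes of B-cell receptor signalling 0 passed, with a median difference of -0.07 and 15 against 4 at an unadjusted p under 0.05. MALT1, the protease that links the receptor to NF-κB, had the smallest p of the list, with a difference of -0.39 (95% interval -0.56 to -0.21, limma adjusted p = 0.0716). Of 25 genes of the p38 and JNK cascade MAP2K6 passed, and the median of -0.05 became 0.0002 after quantile normalization. Of 25 genes around PI3K, AKT and SGK only SGK1 passed, with a median of -0.09 that became 0.004 after quantile normalization. Of 34 immediate early genes and genes of ERK output IER3 passed, with a median of 0.002.

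Lists of growth, stress and protein handling held at most 1 member that passed. Lysosome and autophagy genes had the lowest median, -0.16 (-0.10 after quantile normalization), with 11 of 31 at an unadjusted p under 0.05 in the lower direction and 1 in the higher. The member with the smallest p was GPNMB, a lysosomal glycoprotein (-0.55, limma adjusted p = 0.0595). Among 31 genes of the unfolded protein response 27 were negative, with a median of -0.14 (-0.07 after quantile normalization), and DERL2 passed. The mTORC1 regulators had a median of -0.12 with 40 of 50 negative, MYC and ribosome biogenesis genes -0.11 with 31 of 38, and the electrophile response controlled by NRF2 -0.10 with 21 of 26, where SLC7A11 passed. After quantile normalization these 3 medians were -0.04, -0.06 and -0.06. Mitosis genes had a median of -0.02 with 19 of 36 negative, DNA replication genes -0.05 with 25 of 42, and MHC class II genes 0.05 with 7 of 18 negative. Of 35 interferon response genes 0 passed, with 7 at an unadjusted p under 0.05 in the higher direction and 3 in the lower. A single member passed in each of the lists of hypoxia and glycolysis (ADM), plasma cell differentiation (AIM2), FOXO targets (YPEL5), tryptophan and one-carbon enzymes (KMO) and S100 proteins and annexins (S100A4), with medians of -0.05, -0.12, -0.02, -0.02 and -0.08.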

How the data were processed

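RNA of 12 samples was hybridized to Affymetrix U133 Plus 2.0 arrays. The authors normalized the arrays by RMA, version not stated, and deposited linear intensity values, to which nothing was added before log2 was taken. Of 54675 probe sets, 62 controls were set aside. The annotation gave 41091 probe sets a single symbol, 1801 several and 11721 none. A gene was read from its probe set with the highest mean.

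limma 3.58.1 (R 4.3.3) was fitted to 12 arrays with 1 mean per group (8 residual degrees of freedom) and eBayes, two-sided, with Benjamini-Hochberg adjustment over 54613 probe sets, and was tested on simulated data. Precision is limited by 3 arrays per group.

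The members, gene lists, tests and search letters were chosen with earlier results of these data known. Genes set to be named were the 15 largest differences each way at an adjusted p under 0.05 with arrays that did not overlap, and up to 10 of those moved by a single compound. The rule added up to 4 passing members of each list or its member of smallest p, the 4 largest like rises and falls, the study's kinases and the markers. Of the members of smallest p, the like rises and falls, the kinases and the markers, only some are named. All other genes that passed are named too. Lists hold 924 genes, 851 measured.

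Alternatives were a replicate block, other scalings, an ACTB covariate, an intensity trend, 6 arrays alone, the methods' t-test, filters, added intensity and arrays left out. The letters A to C are not said to pair the samples, and residuals of same-lettered arrays correlated at -0.255 to 0.224. Some genes of the study are not reported here.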

Additional observations from a re-analysis of the deposited data

How the results depend on the processing

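None of the 42 genes reversed under an alternative that was run, but most alternatives could not have changed a direction. Many left the estimate as it was. Leaving out an array or adding to the intensities cannot reverse groups that do not overlap. Only quantile normalization, centring on control probe sets and the ACTB covariate could have reversed a gene. The number of probe sets that differed (100) changed with the setting. It was 1415 with an intensity trend, 982 without dim probe sets and 1421 with 16 added to the intensities. With the fit and adjustment over 1 probe set per gene alone it was 154, which held all 42 genes. It was 14 with the ACTB covariate, 5 on the 6 arrays alone and 2 by the methods' t-test with Benjamini-Hochberg adjustment (7337 before it). With the threshold that the study set against vehicle, a 1.5-fold change, at an unadjusted p under 0.05, it was 238, of which 38.7% were lower, the reverse of the 72.0% among the 100. Leaving out single arrays gave 10 to 212. Quantile normalization gave 90 and centring on control probe sets 85. Of the 42 genes, 42 passed with the trend, 33 after quantile normalization, 36 after centring, 8 with the ACTB covariate, 2 on the 6 arrays alone (ADM and TBC1D27P) and 0 by the methods' t-test. The cause of these shifts was not tested.

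The 97 probe sets that departed from the size ratio became 1113 with the trend, 776 without dim probe sets, 1206 with 16 added, 60 with the ratio of each direction, 1 with the ACTB covariate, and 1 to 167 with single arrays left out. The 501 with like responses became 258 with 1 probe set per gene, where fewer features were tested, and 447 to 514 with arrays left out. The size ratio stayed between 1.039 and 1.06 with arrays left out, 0.987 to 1.033 for rises and 1.091 to 1.131 for falls. By size in place of calls, the opposite class went from 1 to 22 and the single-compound class from 55 to 24.

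With the sample letter as a replicate block, 66 probe sets differed, 27 of the 42 genes among them, and 41 departed from the ratio. Same-lettered arrays of ibrutinib and PLS-123 had residual correlations of -0.255, -0.175 and 0.03. Arrays of different letters were not compared, so these values cannot decide whether a letter marks a shared culture or batch. With 3 arrays per group, differences of genes near the background intensity are the least certain.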

Other observations

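Probe sets of genes in which a different probe set stood for the gene also differed between the compounds, and are given as values. WNK1, a kinase of ion transport, had a probe set at -0.81 that passed against vehicle with PLS-123 and not with ibrutinib. Its 5 other probe sets above the dim range had a median of -0.26 and ran from -0.31 to 0.11. PRDM2, a histone methyltransferase gene, had one at -0.81, with a median of -0.44 over its others above the dim range. ZBTB38, a protein that binds methylated DNA, had one at 0.90 that passed against vehicle with ibrutinib and not with PLS-123. It changed by -1.23 and -0.33, and the median difference of the others was 0.23. NADK2, a mitochondrial NAD kinase, had one at -0.59 while its other probe set above the dim range differed by 0.50. INSIG1, a sterol sensor, had one at -0.53 with others between -0.15 and 0.19. These genes were picked after their values were seen, and which transcripts each probe set reads was not examined.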
